A study of Mus musculus with 13 samples.

Results

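The coreceptor and lineage-choice genes are 10 mouse genes, chosen by name: Cd4, Cd8a, Cd8b1, Zbtb7b, Gata3, Runx1, Runx2, Runx3, Cbfb and Satb1. Each is read from the brightest probe set whose only annotated symbol is that gene, and 9 of the 10 have such a probe set, 1 each. Runx2 had none here and has no value below. In RefSeq on GRCm38.p6 the coreceptor genes share chromosome 6, with Cd4 at chr6:124864693-124888247, Cd8a at chr6:71373427-71379171 and Cd8b1 at chr6:71322788-71337492. Zbtb7b lies at chr3:89377644-89393673, Gata3 at chr2:9857078-9887953 and Satb1 at chr17:51736187-51833290. Runx1 lies at chr16:92601466-92826074, Runx2 at chr17:44495987-44814797, Runx3 at chr4:135120645-135177990 and Cbfb at chr8:105170674-105217989. The other genes tested bring the total to 19752. RNA of thymocytes sorted from mice aged 2 weeks was read on Affymetrix gene arrays, 1 array per sample. The tested genotype is a conditional knockout (cKO) of Sox4, an HMG box transcription factor, and its control is wild type (WT). V2 cells are immature γδ thymocytes, sorted as positive for TCRδ and Vγ2, high for HSA (the product of Cd24a), and negative for CD4 and CD8. DP cells are thymocytes positive for both CD4 and CD8. By label there were 4 V2 cKO, 4 V2 WT, 3 DP cKO and 2 DP WT arrays. All animals are given as mixed in sex, and the labels used here name neither the Cre driver nor the strain, nor whether replicates were separate animals. The p-values therefore rest on the spread among these arrays alone, and that spread may be technical. The V2 arrays fall into 2 title sets, V2imm and immV2, that reuse replicate numbers, and the V2imm titles write KO with no gene name.

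CD4 and CD8 are the coreceptors that bind MHC class II and class I beside the T cell receptor. αβ thymocytes carry both at the double positive stage and then keep one of them, whereas most γδ thymocytes carry neither. The choice runs through 2 opposed transcription factors. ThPOK, encoded by Zbtb7b, directs cells to the CD4 lineage and is turned on after positive selection. RUNX3 directs them to the CD8 lineage and silences Cd4, with CBFβ as the partner that all RUNX proteins need to bind DNA firmly. GATA3 acts upstream of ThPOK, RUNX1 silences Cd4 in early thymocytes, and SATB1 organises chromatin at coreceptor and lineage-factor loci.

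Promoter sequences are shown for the lineage factors that were higher in V2 cells, Runx3 and Gata3, and for the coreceptor gene Cd8a, which was higher in DP cells. They are the 250 bases before an annotated start, from RefSeq on GRCm38.p6, 5′ to 3′ along the gene's strand, and 8 of the 10 genes matched the promoter table. Runx3 has 2 starts there, on chromosome 4, plus strand, at chr4:135120395-135120644 and chr4:135152295-135152544. Gata3 lies on chromosome 2, minus strand, at chr2:9878601-9878850, and Cd8a on chromosome 6, plus strand, at chr6:71373177-71373426. Capitals mark the RUNX letters TGTGGT or TGCGGT on either strand.
Runx3, first start: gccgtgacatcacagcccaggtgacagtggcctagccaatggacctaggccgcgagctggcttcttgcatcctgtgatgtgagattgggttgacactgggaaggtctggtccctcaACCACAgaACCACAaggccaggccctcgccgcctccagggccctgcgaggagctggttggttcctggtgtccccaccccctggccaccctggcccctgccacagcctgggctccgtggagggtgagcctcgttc
Runx3, second start: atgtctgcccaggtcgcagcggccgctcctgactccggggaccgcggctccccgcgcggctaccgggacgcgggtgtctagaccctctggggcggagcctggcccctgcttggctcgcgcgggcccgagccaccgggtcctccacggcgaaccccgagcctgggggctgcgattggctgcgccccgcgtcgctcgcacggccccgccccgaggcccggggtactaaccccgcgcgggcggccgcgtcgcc
Gata3: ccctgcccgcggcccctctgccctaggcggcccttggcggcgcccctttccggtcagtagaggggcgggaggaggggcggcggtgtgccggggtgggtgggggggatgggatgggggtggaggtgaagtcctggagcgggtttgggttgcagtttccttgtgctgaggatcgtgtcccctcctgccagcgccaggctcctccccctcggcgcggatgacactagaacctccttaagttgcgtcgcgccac
Cd8a: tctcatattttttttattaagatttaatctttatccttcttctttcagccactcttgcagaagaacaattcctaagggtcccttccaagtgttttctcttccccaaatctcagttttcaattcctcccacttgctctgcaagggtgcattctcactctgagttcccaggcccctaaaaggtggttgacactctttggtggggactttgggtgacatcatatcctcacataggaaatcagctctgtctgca
The window before the first Runx3 start held the RUNX letters 2 times, both as ACCACA, beginning 134 and 126 bases before the start. The second Runx3 window and the Gata3 and Cd8a windows held none. Among all windows of 250 bases, 18.6% held these letters, and among the 15 windows of these genes 3 did, 1 each of Runx3, Zbtb7b and Runx2. GATA letters (AGATAA or AGATAG, and also TGATAA or TGATAG, on either strand) stood in 26.5% of all windows and in 0 of the 15. The HMG box letters ACAAAG stood in 16.5% of all windows and in 2 of the 15, both of Satb1, whose windows overlap and hold the same 1 site. The 1 probe set of Runx3 gives no separate value for its 2 starts.

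Values are RMA intensities on a log2 scale, and a difference of 1 is a doubling of intensity. Array medians ran from 6.93 to 7.10 and lower quartiles from 5.72 to 6.09. Precision is limited by how few arrays there are. Sox4 itself read 8.07, 9.60, 8.11 and 8.23 in V2 cKO and 8.71, 8.64, 9.68 and 8.39 in arrays labelled V2 WT. In DP it read 8.74, 8.68 and 8.94 in arrays labelled cKO and 9.37 and 8.55 in WT, so the genotypes overlapped in both populations. No source used here places its probe set inside or outside the deleted part, so these values are no check of genotype.

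Population markers other than the coreceptors placed 2 arrays with the other population. The array labelled DP cKO replicate 5 had a mean of 7.75 over 6 DP thymocyte markers and 11.6 over 4 measured γδ markers (Sox13, Etv5, Blk and Maf). In the immV2 set, labelled V2 WT replicate 5 had 10.7 and 7.03. The other V2 arrays lay between 7.28 and 8.08 in the DP markers and between 9.71 and 11.5 in the γδ markers. The other DP arrays lay between 10.6 and 10.9 and between 6.83 and 7.17. Both arrays keep their labels and are shown apart, and the results below are from the other 11 arrays (4 V2 cKO, 3 V2 WT, 2 DP cKO and 2 DP WT), with values for all 13 as labelled where so named. These 2 arrays were already known from earlier results of these data. A further array, V2 cKO replicate 4 (V2imm), lay far from most others. Its pairs had a median absolute difference over genes of 0.25 to 0.40 in log2 intensity, against 0.12 to 0.28 in pairs without it. The 0.25 was with V2 WT replicate 5 (V2imm), an array that was also in the pair at 0.28. V2 cKO replicate 4 (V2imm) stays among the 11, and some V2 cKO values are also given without it. All others include it.

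**Figure D1:**
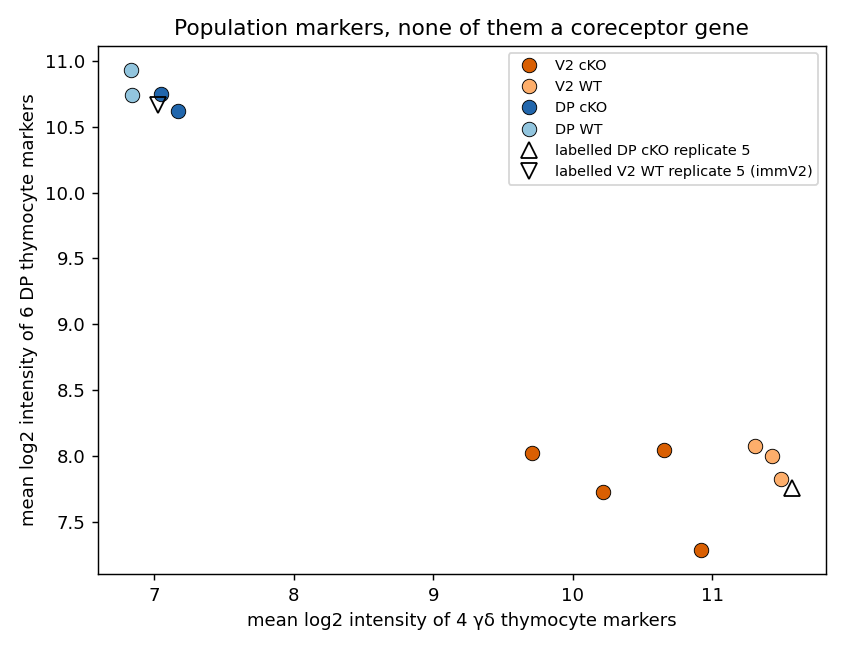
Each point is 1 array, with the mean log2 intensity of 4 γδ thymocyte markers (x axis) against that of 6 DP thymocyte markers (y axis), coloured by labelled group. Triangles mark the arrays labelled DP cKO replicate 5, which lies at 11.6 and 7.75 among V2 arrays, and V2 WT replicate 5 (immV2), which lies at 7.03 and 10.7 among DP arrays.

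The 3 coreceptor genes were lower in V2 cells than in DP cells, where they were among the brightest genes. Because the cells were sorted by CD4 and CD8, their levels between V2 and DP are a description of the sort and carry no test. Cd4, which encodes the MHC class II coreceptor, read 6.84, 6.72, 7.36 and 7.31 in V2 cKO and 6.91, 6.71 and 6.97 in V2 WT. It read 12.62 and 12.46 in DP cKO and 12.36 and 12.49 in DP WT. All 7 V2 arrays were thus near the array medians, a level not shown to be above background, and no V2 array came near a DP array. The V2 minus DP difference, averaged over genotypes, was -5.49 (SE 0.13), and -3.95 (SE 0.99) in the 13 arrays as labelled. Where 1 side is so dim, a difference of intensity can understate that of the RNA, so its size is best read as a lower bound.

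Cd8a, the α chain of CD8, read 8.23, 7.81, 7.49 and 7.74 in V2 cKO and 7.67, 7.71 and 7.51 in V2 WT. In DP it read 12.84 and 12.63 in cKO and 12.56 and 12.87 in WT. Its V2 minus DP difference was -5.03 (SE 0.14), or -3.49 (SE 0.99) as labelled. Cd8b1, the β chain that pairs with CD8α on conventional CD8 T cells, read 9.49, 8.84, 9.60 and 9.50 in V2 cKO and 8.84, 8.52 and 8.70 in V2 WT. In DP it read 13.30 and 13.17 in cKO and 13.08 and 13.27 in WT. Its V2 minus DP difference was -4.16 (SE 0.16), or -2.77 (SE 0.89) as labelled. Within V2 arrays Cd8b1 lay between the 76.2 and 90.0 percentile of the genes on its array, and Cd4 between 40.6 and 56.4. In the arrays shown apart, the array labelled DP cKO replicate 5 had 7.47 for Cd4, 7.65 for Cd8a and 8.23 for Cd8b1, and that labelled V2 WT replicate 5 (immV2) had 12.65, 12.94 and 13.27.

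**Figure D2:**
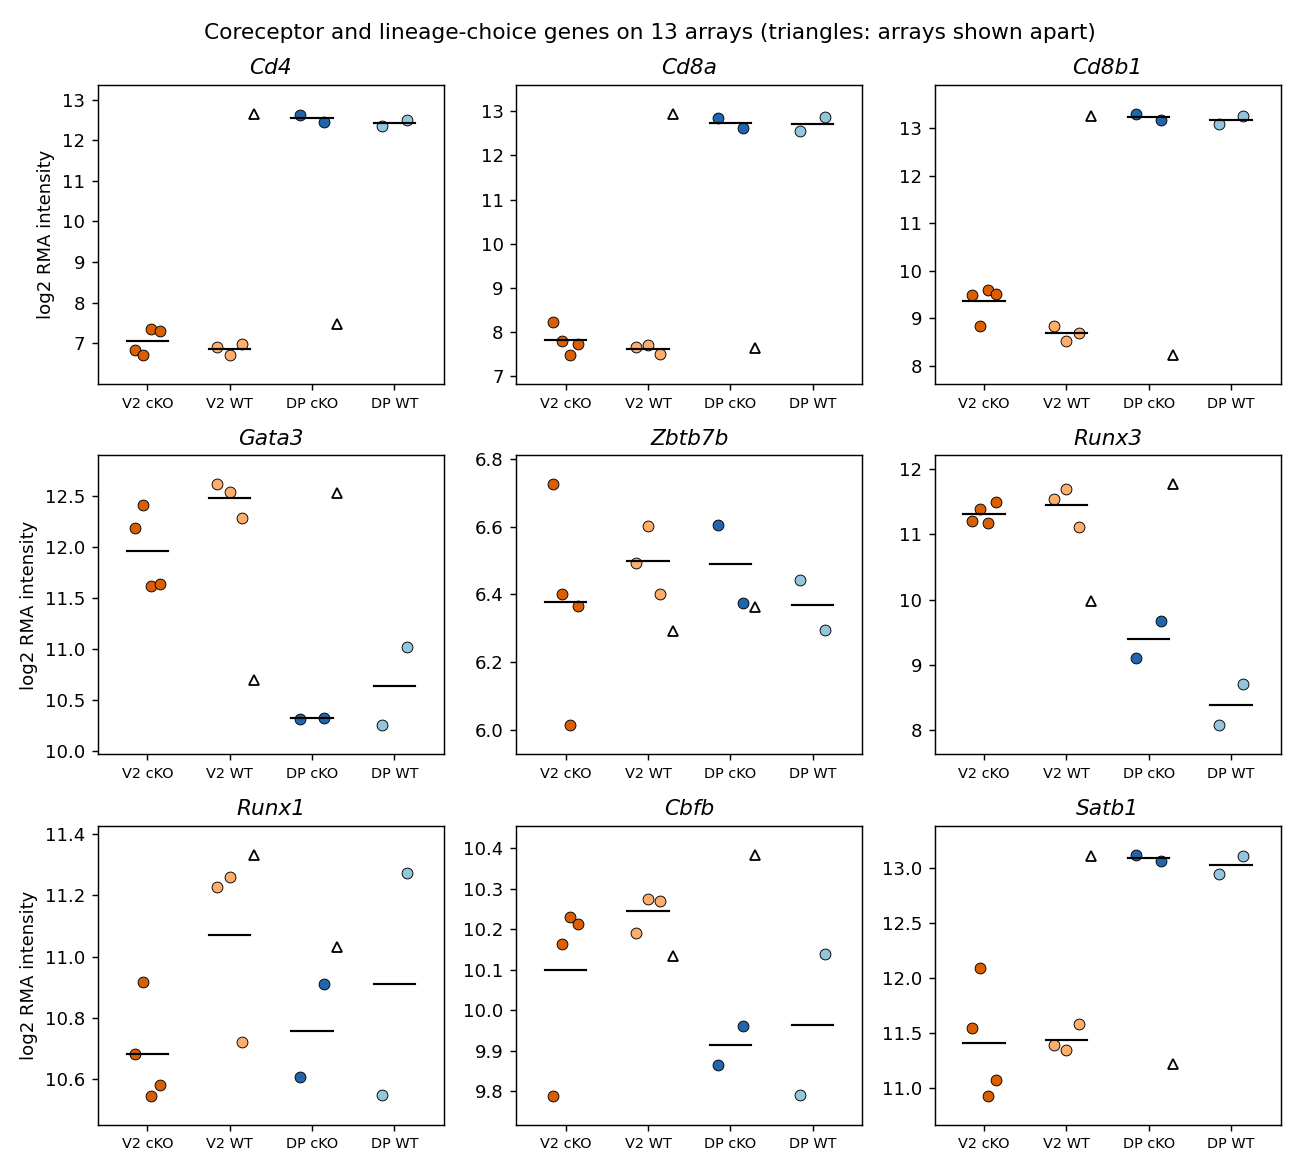
Log2 RMA intensity (y axis) of the 9 measured genes in V2 cKO, V2 WT, DP cKO and DP WT arrays (x axis), with a line at each group mean over the 11 arrays and open triangles for the arrays shown apart, drawn in their labelled group. Gata3 and Runx3 are higher and Satb1 and the 3 coreceptor genes lower in all 7 V2 arrays than in all 4 DP arrays, and the y axes start at different values.

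Of the 6 lineage factors measured, the CD8-lineage factor Runx3 and the CD4-side factor Gata3 were both higher in V2 cells than in DP cells, Satb1 was lower, and Zbtb7b, Runx1 and Cbfb did not pass. With limma, 3 of 6 thus differed at an adjusted p below 0.05 in the 11 arrays, against 10.7% of all 19752 genes, 6.81% higher and 3.85% lower in V2. The same 3 were at an unadjusted p below 0.05, against 20.6% of all genes. As labelled, 0 of 6 passed, with 3 at an unadjusted p below 0.05 against 14.7% of all genes, and 0.481% of all genes passed. Of 9 macrophage and dendritic cell markers, Cd74 (log2 difference 2.03, SE 0.43) and H2-Aa (1.72, SE 0.44) were higher in V2 over the 11 arrays. Without V2 cKO replicate 4 (V2imm) 5 of the 9 were higher and 0 lower, beside 1987 and 1131 of all 19752 genes. The mean of the 9 ran from 6.94 to 8.41 in V2imm arrays, from 6.08 to 6.66 in immV2 arrays and from 6.18 to 6.41 in DP arrays. The part of these markers in the lineage factor values was not tested.

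Runx3 read 11.20, 11.38, 11.17 and 11.50 in V2 cKO and 11.54, 11.69 and 11.12 in V2 WT. It read 9.11 and 9.67 in DP cKO and 8.07 and 8.70 in DP WT, so every V2 array was above every DP array. It was 5.59-fold higher in V2 (log2 difference 2.48, SE 0.18, limma adjusted p = 6.93e-07). As labelled the difference was 1.92 (SE 0.39, limma adjusted p = 0.0587). The array labelled V2 WT replicate 5 (immV2) read 9.98, above all 4 DP arrays and below all 7 V2 arrays, and the array labelled DP cKO replicate 5 read 11.77, above all of them.

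Gata3 was 3.25-fold higher in V2 (log2 difference 1.70, SE 0.16, limma adjusted p = 8.75e-06). Its levels were 12.19, 12.41, 11.62 and 11.64 in V2 cKO and 12.62, 12.54 and 12.28 in V2 WT, against 10.32 and 10.33 in DP cKO and 10.25 and 11.02 in DP WT. The populations did not overlap, and DP WT replicate 5 stood highest among the DP arrays. As labelled the difference was 1.15 (SE 0.37, limma adjusted p = 0.162).

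Satb1 was 3.18-fold lower in V2 (log2 difference -1.67, SE 0.18, limma adjusted p = 2.92e-05). It read 11.55, 12.10, 10.93 and 11.08 in V2 cKO and 11.39, 11.35 and 11.59 in V2 WT, against 13.12 and 13.06 in DP cKO and 12.95 and 13.12 in DP WT. The 4 DP arrays stood close together, and the V2 cKO arrays spread on both sides of the V2 WT arrays. As labelled the difference was -1.12 (SE 0.39, limma adjusted p = 0.189). Runx3, Gata3 and Satb1, like the coreceptor genes, belonged to the 8.28% of all genes (4.79% higher and 3.49% lower in V2) whose 7 V2 and 4 DP values did not overlap.

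Zbtb7b was dim in every array. It read 6.73, 6.40, 6.01 and 6.37 in V2 cKO, 6.49, 6.60 and 6.40 in V2 WT, 6.60 and 6.37 in DP cKO and 6.44 and 6.29 in DP WT. All values were below the array medians and between the 28.8 and 40.0 percentile of genes, a level not shown to be above background. Its V2 minus DP difference of -0.01 (95% interval -0.25 to 0.22, limma adjusted p = 0.971) at such a level says little about its RNA.

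Runx1 and its partner Cbfb were bright in all arrays. Runx1 ran from 10.55 to 11.26 over the 7 V2 arrays and from 10.55 to 11.27 over the 4 DP arrays, with a difference of 0.01 (95% interval -0.33 to 0.35, limma adjusted p = 0.983), or 0.03 as labelled. Cbfb ran from 9.79 to 10.27 and from 9.79 to 10.14, with a difference of 0.25 (95% interval -0.05 to 0.54, limma adjusted p = 0.356), or 0.14 as labelled. Over the group means, neighbours in the order of Runx1, Cbfb and Zbtb7b all overlapped. For Gata3 and Satb1 the order broke only between the V2 and DP groups. For Runx3 it ran V2 WT, V2 cKO, DP cKO and DP WT, with no overlap from V2 cKO to DP cKO or from DP cKO to DP WT.

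The genes nearest to Cd4 in pattern were Cd8a, the recombinase gene Rag1 and the cystine transporter gene Slc7a11, with mean absolute differences of 0.33, 0.34 and 0.39 in centred log2 intensity over the 13 arrays. Nearest to Gata3 were Bcl9 (0.18), Heg1 (0.20) and Cx3cr1 (0.20). Nearest to Runx3 were Chst15 (0.21), Pdgfrb (0.28) and Arhgap26 (0.32). Genes were compared only where their SD over arrays was at least 0.5 times that of the gene in question.

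Other genes of coreceptor control were read from 4 lists chosen with earlier results of these data known. Of 26 measured regulators of the Cd4, Cd8 and Zbtb7b loci, 3 were higher and 3 lower in V2, beside 6.81% and 3.85% of all genes, and the list median of -0.07 compared with -0.02 over all genes. Without V2 cKO replicate 4 (V2imm) the counts were 5 and 4, beside 1987 and 1131 of all 19752 genes in that fit. Bcl6, a transcriptional repressor, averaged 7.60 in V2 and 10.7 in DP arrays (log2 difference -3.11, SE 0.17, limma adjusted p = 4.72e-08). Tox, an HMG box factor needed for CD4 lineage cells, was higher in V2 (1.25, SE 0.14), as was Tle4, a corepressor of the Groucho family that RUNX proteins recruit (1.29, SE 0.17). The repressor gene Gfi1 was lower (-0.78, SE 0.17).

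Of 13 measured signalling genes of lineage choice, 3 were higher and 4 lower in V2 (median -0.11), beside 6.81% and 3.85% of all genes. Il7r, the receptor chain for interleukin-7, a cytokine that supports the CD8 lineage, averaged 10.1 in V2 and 6.12 in DP (4.05, SE 0.16). In DP it was as dim as Zbtb7b, so this size too is best read as a lower bound. Its inhibitor Socs1 was lower in V2 (-1.56, SE 0.15), as were Themis, which is needed for positive selection (-1.22, SE 0.14), and the calcium-responsive factor gene Nfatc3 (-0.94, SE 0.15).

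Of 12 genes typical of CD8 T cells, 8 were higher and 0 lower in V2 (median 0.82), beside 6.81% and 3.85% of all genes. The called genes with the smallest p were the granule gene Nkg7 (5.51, SE 0.24), Gzma, which encodes granzyme A (3.37, SE 0.16), the cystatin gene Cst7 (3.03, SE 0.19), and Itgae, the αE integrin chain (2.84, SE 0.21). Nkg7, Itgae and Cst7 lay below the array medians in all 4 DP arrays, and their sizes are likewise best read as lower bounds. Of 12 genes typical of CD4 T cells, 5 were higher and 1 lower in V2 (median 0.17), beside 6.81% and 3.85% of all genes. The smallest p values were those of the chemokine receptor gene Ccr4 (1.89, SE 0.15) and Rora (2.47, SE 0.20). The interleukin-4 receptor gene Il4ra was lower (-1.35, SE 0.13), and the costimulatory receptor gene Icos was higher (1.32, SE 0.24). As labelled, 0 genes of the 4 lists passed with limma, with 8 of 26, 7 of 13, 8 of 12 and 5 of 12 at an unadjusted p below 0.05 in the order given, beside 14.7% of all genes.

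**Figure D3:**
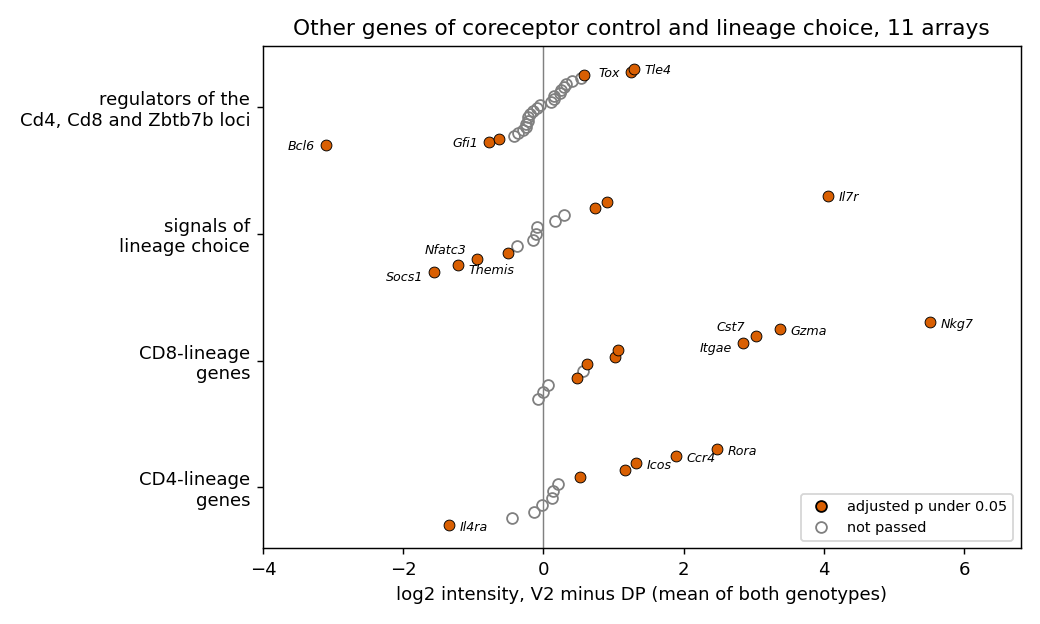
Log2 intensity difference of V2 minus DP over the 11 arrays (x axis) for each measured gene of 4 lists (rows), filled where the limma adjusted p is below 0.05, with up to 4 called genes named per list. In the CD8 T cell list 8 of 12 genes are called and all 8 lie to the right of 0, whereas the regulators have 3 called on each side.

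The Sox4 knockout was then compared with wild type within each population. In V2 cells 0 of 9 genes passed with limma, as did 0% of all genes, with 2 of 9 against 3.83% of all genes at an unadjusted p below 0.05. Without V2 cKO replicate 4 (V2imm) 0 of 9 passed, with 1 of 9 against 1523 of all 19752 genes at an unadjusted p below 0.05. Cd8b1 was 0.63 higher on the log2 scale in V2 cKO (SE 0.19, 95% interval 0.22 to 1.05, limma adjusted p = 0.729), and the lowest cKO value, in replicate 5 (V2imm), equalled the highest WT value to 2 decimals. Non-overlap held for 3.45% of all genes, 1.69% higher and 1.76% lower in cKO. It differed by 0.48 (SE 0.25) within V2imm and by 0.86 (SE 0.31) within immV2, which has 1 WT array in this fit. Without V2 cKO replicate 4 (V2imm) it was 0.51 (SE 0.18, limma adjusted p = 0.465). Cd8a differed by 0.24 (SE 0.17) and Cd4 by 0.13 (SE 0.15), or by 0.11 and 0.14 without V2 cKO replicate 4 (V2imm). As labelled, with a V2 WT array that has DP levels, the 3 coreceptor genes were at -0.47, -1.14 and -1.25.

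Gata3 differed by -0.43 in V2 cKO (SE 0.19, 95% interval -0.84 to -0.01, limma adjusted p = 0.999), by -0.28 (SE 0.25) within V2imm and -0.65 (SE 0.31) within immV2, by -0.41 (SE 0.19) without V2 cKO replicate 4 (V2imm), and by -0.07 (SE 0.46) as labelled. Both immV2 cKO arrays, at 11.62 and 11.64, were the lowest of the V2 arrays. The same arrays had the lowest Satb1, at 10.93 and 11.08, and the lowest Cd24a, which encodes HSA, at 10.38 and 9.46 against 11.61 to 12.31 in the other 5 V2 arrays. In V2 cells Satb1 differed by 0.45 (SE 0.22) within V2imm and -0.58 (SE 0.28) within immV2, and by 0.04 (SE 0.22) over both. Cd24a was lower in DP cKO too, at 10.89 and 10.93, against 11.97 and 12.27 in DP WT. In the arrays shown apart it read 11.98 (labelled DP cKO replicate 5) and 10.96 (labelled V2 WT replicate 5, immV2). The part of Cd24a levels in the V2 values of Gata3 and Satb1 was not tested.

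Runx1 differed by -0.33 in V2 cKO (95% interval -0.75 to 0.09), or -0.45 as labelled, Cbfb by -0.17 (95% interval -0.53 to 0.19), Runx3 by -0.11 (95% interval -0.57 to 0.36) and Zbtb7b by -0.08 (95% interval -0.37 to 0.21). These intervals leave room for differences of either sign. Without V2 cKO replicate 4 (V2imm) Runx1 was at -0.24, Cbfb at -0.06, Runx3 at -0.0075 and Zbtb7b at -0.18. Markers of γδ thymocytes and of other cells also varied within V2. The 4 γδ markers, Sox13, Etv5, Blk and Maf, averaged 9.71 to 10.9 in V2 cKO and 11.3 to 11.5 in V2 WT. All 4 were below WT in cKO (median -1.09, with 0 called by limma and 4 at an unadjusted p below 0.05). Over all genes, 47.9% were below WT and 3.83% were at an unadjusted p below 0.05. Without V2 cKO replicate 4 (V2imm) the γδ marker median was -0.85. Of 9 macrophage and dendritic cell markers, 4 had higher and 5 lower plain means in V2 cKO. Adjusted for title set, all 9 were above WT (median 0.08, with 0 called by limma and 0 at an unadjusted p below 0.05). Over all 19752 genes, 10295 were above WT. Without V2 cKO replicate 4 (V2imm) 7 of the 9 were above (median 0.52, 0 called and 6 at an unadjusted p below 0.05). In that fit 8654 of all genes were above WT, and 1523 were at an unadjusted p below 0.05. The mean of these 9 markers ran from 6.12 to 8.41 in V2 cKO and from 6.08 to 7.57 in V2 WT. V2imm arrays had 6.94 to 8.41 and immV2 arrays 6.08 to 6.66. Some dendritic cells carry CD4 or CD8α, and the part of such cells in the V2 values was not tested. In such bulk samples, fewer cells of a type and less RNA per cell cannot be told apart. The same limit holds for Sox13, Etv5, Blk and Maf.

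In DP cells 0 of 9 genes passed, against 0.0253% of all genes, with 1 of 9 against 2.71% at an unadjusted p below 0.05. That gene was Runx3, which read 9.11 and 9.67 in DP cKO and 8.07 and 8.70 in DP WT. Both cKO arrays were above both WT arrays, as was so for 15.8% of all genes, while 29.8% did not overlap in either direction (14% lower in cKO). The difference was 1.01 (2.01-fold, SE 0.28, 95% interval 0.40 to 1.61, limma adjusted p = 0.852), and 1.80 (SE 0.62, limma adjusted p = 1) as labelled, where it includes an array with V2 levels. Without DP WT replicate 3 it was 0.69, and without DP WT replicate 5 it was 1.32. In V2 cells, where Runx3 stood higher, the same comparison gave -0.11, and the difference between the effects, V2 minus DP, was -1.11 (SE 0.35, 95% interval -1.88 to -0.35, limma adjusted p = 1). As labelled that difference was -1.57 (SE 0.79). Runx3 was thus 1.93 (SE 0.24) higher in V2 cKO than in DP cKO, and 3.04 (SE 0.26) higher in V2 WT than in DP WT. The array labelled V2 WT replicate 5 (immV2), which has DP marker levels, read 9.98, above both DP cKO arrays. The 4 γδ markers averaged 7.05 to 7.17 in DP cKO and 6.83 to 6.84 in DP WT. Of these, 3 were above and 1 below WT (median 0.26, 0 called by limma), beside 10029 and 9712 of all genes. Their part in the Runx3 values was not tested.

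The other DP differences had intervals that hold 0. Cd4 was at 0.11 (95% interval -0.31 to 0.54), Cd8a at 0.01 (95% interval -0.47 to 0.49) and Cd8b1 at 0.06 (95% interval -0.47 to 0.59). Satb1 was at 0.06 (95% interval -0.54 to 0.66), Gata3 at -0.31 (95% interval -0.85 to 0.22), Runx1 at -0.15 (95% interval -0.69 to 0.39), Cbfb at -0.05 (95% interval -0.51 to 0.41) and Zbtb7b at 0.12 (95% interval -0.25 to 0.49). With 2 arrays a group, differences that lie within these intervals could not be told from 0. Gata3 and Runx1 were each brighter in DP WT replicate 5, at 11.02 and 11.27, than in DP WT replicate 3, at 10.25 and 10.55.

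The cKO effects of the 2 populations differed for 0 of 9 genes with limma, as for 0% of all genes, with 1 of 9 (Runx3) against 1.88% at an unadjusted p below 0.05. For Cd8b1 the difference between effects was 0.57 (SE 0.31, limma adjusted p = 1), or 1.13 (SE 1.78) as labelled.

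**Figure D4:**
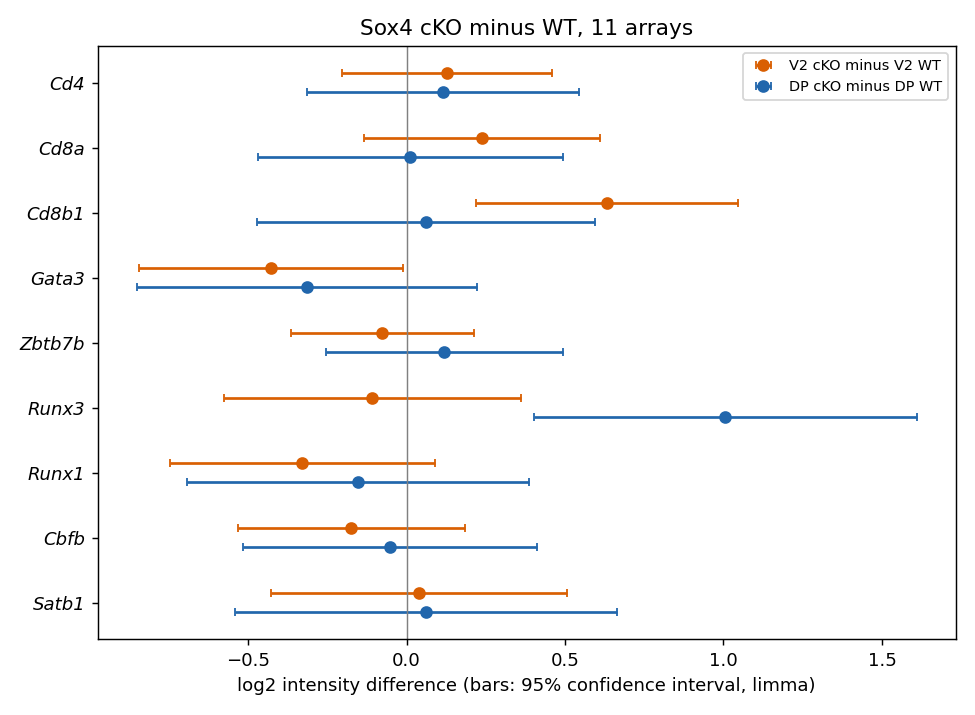
Log2 intensity difference of cKO minus WT (x axis) in V2 and in DP arrays for the 9 genes (rows), with 95% confidence intervals from limma over the 11 arrays. Of the 18 intervals, those of Cd8b1 (0.22 to 1.05) and Gata3 (-0.84 to -0.01) in V2 and of Runx3 in DP (0.40 to 1.61) leave out 0, before any adjustment.

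Among the list genes 0 passed in either population with limma. In V2, 20 of 26 regulators were below WT (median -0.25), against 47.9% of all genes (median 0.01). V2 cKO replicate 4 (V2imm) was the lowest of the 7 V2 arrays for 11 of the 26, and without it 17 of 26 were below WT (median -0.08), against 56.2% of all genes (median -0.02). With it, 2 of the 26 were at an unadjusted p below 0.05, against 3.83% of all genes, Myb, a factor of early thymocytes (-0.51, SE 0.17), and Tcf12, an E protein gene (-0.34, SE 0.14). Of the signalling genes 4 were above and 9 below WT (median -0.05), with Zap70, a kinase of T cell receptor signalling, at -0.42 (SE 0.22) and Socs3 at 0.36 (SE 0.21). Zap70 read 8.72 in V2 cKO replicate 4 (V2imm) and 9.78, 9.94 and 9.97 in the other V2 cKO arrays, against 9.81, 9.78 and 10.19 in V2 WT. Without that array Zap70 was at -0.13 (SE 0.14), Socs3 at 0.51 (SE 0.21), and 10 of the 13 were above WT (median 0.08). The CD8 T cell list had a median of 0.06, with Klrd1 at 0.63 (SE 0.23) and Gzma at -0.53 (SE 0.19), and the CD4 T cell list a median of 0.17, with Il4ra at 0.70 (SE 0.16) and Il6ra at 1.07 (SE 0.28). Without V2 cKO replicate 4 (V2imm) the CD8 list median was -0.0046, with Klrd1 at 0.35 (SE 0.18), and the CD4 list median was 0.28. Klrd1 averaged 5.63 in V2 cKO and 4.94 in V2 WT, below the array medians, a level not shown to be above background. In DP the 4 medians lay between -0.10 and 0.06. The smallest p values in DP were those of Smarce1, a BAF complex subunit (-0.53, SE 0.23), and Tox (-0.38, SE 0.22) among the regulators. They were Socs1 (0.41, SE 0.24) and Stat5a (0.29, SE 0.21) among the signalling genes, Xcl1 (-0.54, SE 0.21) and Prf1 (0.29, SE 0.17) in the CD8 list, and Icos (-1.11, SE 0.39) and Il4ra (-0.31, SE 0.20) in the CD4 list.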

How the data were processed

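The authors deposited probe set intensities, which the submitters' processing notes credit to RMA and Affymetrix Power Tools, with the version not given in the sources used here. RMA corrects background, normalises arrays and summarises probes. The values ran from 6.16 to 23800, read as a linear scale, and log2 was taken. Groups came from the titles. Of 24922 probe sets, 21425 had 1 symbol, and each of 19752 genes took its probe set of highest mean. The fit used limma 3.58.1 in R 4.3.3 (lmFit, eBayes with an intensity trend), with 4 group means and a covariate for the V2 title set over all arrays of the fit, two-sided tests and Benjamini-Hochberg adjustment over all genes at 0.05. It was checked on simulated data. V2 minus DP is the mean of the WT and cKO differences.

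The members, lists and arrays shown apart were chosen with earlier results of these data known. The rule for named genes took all members, up to 4 called genes with the smallest p per list (or 2 uncalled), and 3 nearest genes of Cd4, Gata3 and Runx3. Alternatives changed the arrays, covariate, block, normalisation, probe set choice, filter and moderation. Residuals of same-numbered arrays correlated over genes at -0.35, -0.22 and -0.50 in V2 and at 0.18 in DP. The V2 arrays share the title-set covariate, which by itself draws such V2 correlations below 0. These values therefore cannot decide whether same-numbered arrays are pairs. The main fit did not treat them as pairs, and a replicate block was among the alternatives. Plots used Python 3.11.15 and matplotlib 3.10.9.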

Additional observations from a re-analysis of the deposited data

Results flagged for a closer look

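Within groups of 4 arrays as labelled, 18 sets of values were screened for an array far from the rest, by its gap to the nearest value over the group's range, and 6 stood out. Chance marks about 1 in 20 such groups, a rate that cannot be set against all 6, since 1 array was already known to differ. In that array, labelled V2 WT replicate 5 (immV2), these were Cd4 at 12.65, Cd8a at 12.94, Cd8b1 at 13.27 and Satb1 at 13.11. Each was far above the other V2 WT arrays. The array is shown apart throughout for its DP marker levels, so these values are no new result. Cd8b1 in V2 cKO replicate 5 (V2imm) was 8.84, below the other V2 cKO arrays. Cbfb in V2 cKO replicate 4 (V2imm) was 9.79, below the other V2 cKO arrays.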

How the results depend on the processing

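Gata3, Runx3 and Satb1 kept their V2 minus DP direction under every alternative and passed under all but the 13 arrays as labelled, where 0 of the 6 lineage factors passed. No alternative gave a called member in the cKO comparisons. Called genes in V2 minus DP numbered 2106, 95 with 13 arrays, and 1381 to 3118 when 1 array was left out (1381 without DP cKO replicate 3). In V2 cKO minus WT 0 became 34 with a replicate block, 13 with quantile normalisation, 9 with dim genes left out, and 0 to 44 when 1 array was left out (44 without V2 cKO replicate 5 of V2imm, 7 without V2 cKO replicate 4 and 5 without V2 WT replicate 3 of immV2). In DP cKO minus WT 5 became 0 with 13 arrays and in a fit of DP arrays alone, 3 with no title-set covariate, 8 with a replicate block, 9 with quantile normalisation, 8 with dim genes left out, and 0 to 14 when 1 array was left out (0 without DP WT replicate 5, 3 without DP cKO replicate 3, 8 without V2 WT replicate 3 of immV2, 14 without V2 cKO replicate 4 or replicate 5 of V2imm). For the difference between effects 0 became 4 with a replicate block and 0 to 4 when 1 array was left out (4 without DP WT replicate 3, 2 without DP cKO replicate 4, 1 without V2 cKO replicate 4 of either set). The replicate block changed no call of a member, and for V2 minus DP it was fitted as a random block.

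The values that changed sign were not called in the 11 arrays or under the alternative. In V2 minus DP, Zbtb7b was 0.0036 with 13 arrays, 0.0087 with no title-set covariate, and -0.072 to 0.043 when 1 array was left out, and Runx1 was -0.024 with quantile normalisation and -0.17 to 0.19 when 1 array was left out. In V2 cKO minus WT with 13 arrays, Cd4 was -1.25, Cd8a -1.14, Cd8b1 -0.47, Runx3 0.23 and Satb1 -0.45. Satb1 was -0.029 with no title-set covariate. Within V2imm Cd4 was -0.028 and Zbtb7b 0.014, and within immV2 Runx3 was 0.22 and Satb1 -0.58. When 1 array was left out Cd4 ran from -0.028 to 0.21, Zbtb7b from -0.18 to 0.014 and Satb1 from -0.20 to 0.45. In DP cKO minus WT with 13 arrays, Cd4 was -1.57, Cd8a -1.68, Cd8b1 -1.61, Gata3 0.42, Cbfb 0.11 and Satb1 -0.56. Cd8a was -0.028 with quantile normalisation, and with a replicate block Gata3 was 0.067, Runx1 0.057 and Cbfb 0.075. When 1 array was left out Cd8a ran from -0.14 to 0.17, Cd8b1 from -0.031 to 0.15, Gata3 from -0.70 to 0.070, Runx1 from -0.51 to 0.21, Cbfb from -0.22 to 0.12 and Satb1 from -0.023 to 0.15. The 13 arrays include the 2 whose population markers go against their labels, and otherwise the cause of a change was not tested. Zbtb7b lay below the array medians, which limits what its values show.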
